A study of Mus musculus with 48 samples.

Results

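Autophagy is the route by which cells enclose cytoplasm in a double membrane, the autophagosome, and deliver it to lysosomes for breakdown. The 40 genes described here encode the core machinery of that route and the MiT/TFE transcription factors, which bind promoters of autophagy and lysosome genes. The list names the genes one by one and applies no measured threshold, but it was drawn up with earlier results of these data known. They are 40 of the 47643 gene identifiers counted in the series. All 40 were among the 19048 genes that passed the filter on low counts.

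RNA was sequenced from nociceptors, sensory neurons that respond to damaging stimuli, sorted from the fourth lumbar (L4) dorsal root ganglion of mice. All animals carried Nav1.8-Cre, a Cre recombinase driven by a sodium channel gene of nociceptors, and the Cre-dependent fluorescent reporter Rosa26-ZsGreen. Control animals were Tsc2 flox/+, so their Cre-expressing neurons kept 1 functional Tsc2 copy, and conditional knockout (cKO) animals were Tsc2 flox/null, so the null copy was present in every cell of the body. Tsc2 encodes tuberin, which restrains the kinase complex mTORC1. Ganglia were taken 3 days after the sciatic nerve was crushed with forceps, either from the crushed side (crush) or from the opposite side (uninjured), so an uninjured ganglion came from an animal with a crushed nerve on the other side. Animals were 8 to 9 weeks old and of mixed C57BL/6 and AJ background. Each of the 4 groups held 4 biological replicates, 2 male and 2 female, and each replicate was sequenced as 3 technical aliquots of about 100 sorted cells. The design compares crush with no injury in either genotype, deletion with control on either side, and the crush effect between genotypes.

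As background, mTORC1 holds autophagy back in well-fed cells. It phosphorylates the ULK1 complex, which starts autophagosome formation, and it phosphorylates TFEB, TFE3 and MITF, which then stay in the cytoplasm. Long-lived neurons depend on autophagy because they cannot dilute damaged proteins and organelles by dividing. Transcript levels do not report autophagic flux, protein levels or the phosphorylation of any of these factors.

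Depth ran from 5159353 to 34228180 gene counts in the 48 libraries and from 36773198 to 63365268 in the 16 sums of 3 aliquots. Levels are given as CPM, the counts of a gene relative to the total of its summed sample, scaled by the trimmed mean of M values. Tsc2 itself was 21.0 ± 5.14 CPM (SD, n = 4) in uninjured control, 23.2 ± 3.76 in crush control, 8.86 ± 1.51 in uninjured cKO and 8.30 ± 2.42 in crush cKO samples. It was lower with deletion without injury (log2 change -1.24 ± 0.23, SE; edgeR adjusted p = 0.00101) and after crush (-1.48 ± 0.23; edgeR adjusted p = 0.00106). The defining nociceptor genes were abundant in every group, but the summed level of 12 of them was 12012.2 to 21456.4 CPM in uninjured control, 8662.7 to 10821.2 in crush control, 7433.4 to 10605.6 in uninjured cKO and 6159.5 to 7681.5 in crush cKO samples. Of the 12, 7 fell with crush in control neurons, beside 8.68% of all genes, and 3 fell with crush in cKO neurons, beside 2.86%. With deletion without injury 3 fell and 1 rose, beside 9.02% and 11.7%. With deletion after crush 1 fell, beside 3.21%. Genes of other cells were also present. The sum of 7 satellite glia markers was 545.1 to 845.5, 622.9 to 1055.6, 575.2 to 786.7 and 809.2 to 1324.1 CPM in the same order. Of the 7, 1 was called higher with crush in each genotype, beside 11.0% of all genes in control and 2.57% in cKO neurons. None of them was called in the deletion comparisons. The sum of 6 Schwann cell markers was 1323.7 to 1663.0, 1751.8 to 1873.0, 1475.7 to 1760.4 and 1617.1 to 1895.3 CPM, with none of the 6 called in any comparison. The sum of 8 vascular and fibroblast markers was 54.8 to 237.1, 21.0 to 73.8, 106.9 to 195.3 and 57.9 to 320.3 CPM. In that list Acta2, smooth muscle actin, was at 0.132 ± 0.109, 0.602 ± 0.421, 7.25 ± 0.853 and 8.70 ± 2.83 CPM and rose with deletion without injury (log2 change 5.74 ± 0.65; edgeR adjusted p = 1.54e-05) and after crush (3.86 ± 0.58; edgeR adjusted p = 8.96e-04) and with crush in control neurons (2.15 ± 0.60; edgeR adjusted p = 0.0192). Pdgfrb, a pericyte receptor, rose with deletion without injury (1.10 ± 0.36; edgeR adjusted p = 0.0410). Of the 7 genes of this list that were tested, 2 thus rose with deletion without injury, beside 11.7% of all genes. After crush 1 rose with deletion, beside 3.38%, and with crush in control neurons 1 rose, beside 11.0%. None fell, and the others were not called. Negative log2 changes were held by 2, 1 and 3 of the 7 in these comparisons. The sum of 6 markers of large-fibre neurons was 314.6 to 434.7, 156.6 to 212.8, 203.5 to 266.2 and 159.3 to 210.0 CPM. Among these Cntnap2 fell with deletion without injury (-1.01 ± 0.16; edgeR adjusted p = 3.97e-04), with crush in control neurons (-1.19 ± 0.16; edgeR adjusted p = 9.76e-05) and with crush in cKO neurons (-0.69 ± 0.16; edgeR adjusted p = 0.0198), and Necab2 with crush in control neurons (-1.70 ± 0.51; edgeR adjusted p = 0.0274). No other large-fibre marker was called. With deletion 3 of the 6 had positive and 3 negative log2 changes without injury, and 5 positive and 1 negative after crush. No gene of these lists was at 0 in all samples of a group, and their part in the results was not tested. In such pools, fewer cells of a type and less RNA per cell cannot be told apart.

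One library stood apart for these genes. The third aliquot of crush cKO replicate 3 had the fewest genes detected of all 48 libraries (15493), and it was the lowest of the 12 crush cKO libraries for 13 of the 40 genes and the highest for 12. In the same library Gabarap was at 1032.7 CPM against 507.9 to 621.9 in the 9 libraries of the other replicates, and Tfe3 was at 5.17 against 14.5 to 41.5. Counts of called members in the 4 comparisons of 2 groups are therefore also given without this aliquot, an alternative chosen after seeing the data. The shares of all genes called in that fit are not given, so a change in these counts is not read as a result about the members.

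Deletion of Tsc2 without injury called the most members, and it also called the most of all genes. Of the 40 genes, 6 rose and 6 fell at an adjusted p under 0.05 in edgeR's quasi-likelihood test, against 11.7% higher and 9.02% lower of all 19048 genes tested. The genes that rose were the cargo receptors Sqstm1, Optn and Calcoco1, the lipid transfer gene Atg2a, the conjugation enzyme Atg3 and the ATG8 gene Gabarap. Those that fell were Map1lc3a, another ATG8 gene, the lipid kinase Pik3c3, the initiation gene Atg101 and the conjugation genes Atg4c, Atg5 and Atg10. The median log2 change of the 40 was 0.00 and that of all genes 0.02. Without the outlying aliquot 17 members were called, among them the same 12.

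Crush in control neurons called 8 members. Tfe3, Atg2a and Sqstm1 rose, beside 11.0% of all genes, and Pik3c3, Atg2b, Atg4c, Atg5 and Atg10 fell, beside 8.68% of all genes. The median log2 change of the members was -0.06, against -0.03 for all genes. Without the outlying aliquot 9 members were called, the same 8 and Wipi2 (0.40 ± 0.13; edgeR adjusted p = 0.0412). Crush in cKO neurons called 1 member, Atg2b, which fell, and no member that rose; the shares of all genes were 2.57% higher and 2.86% lower. At an adjusted p under 0.05 without the outlying aliquot 3 members fell there: Atg2b, Atg3 (log2 change -0.48 ± 0.12; edgeR adjusted p = 0.0265) and Atg5 (-0.28 ± 0.07; edgeR adjusted p = 0.0281).

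After crush, deletion called 4 members. Sqstm1 and Atg3 rose, beside 3.38% of all genes, and Map1lc3a and Gabarapl1 fell, beside 3.21%. Without the outlying aliquot 4 were again called, with Atg3 lost and Atg5 gained (-0.26 ± 0.07; edgeR adjusted p = 0.0359). The difference between the 2 crush effects, tested as an interaction, called 1 member, Sqstm1, as lower in cKO than in control neurons, beside 1.54% of all genes lower and 0.220% higher. In all, 15 members were called in at least 1 of the 5 comparisons and 25 in none. The share of all genes called in at least 1 comparison was not computed, so these 2 counts are not read as a result about the members. The map of log2 changes by role shows each gene in each comparison.

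**Figure D1:**
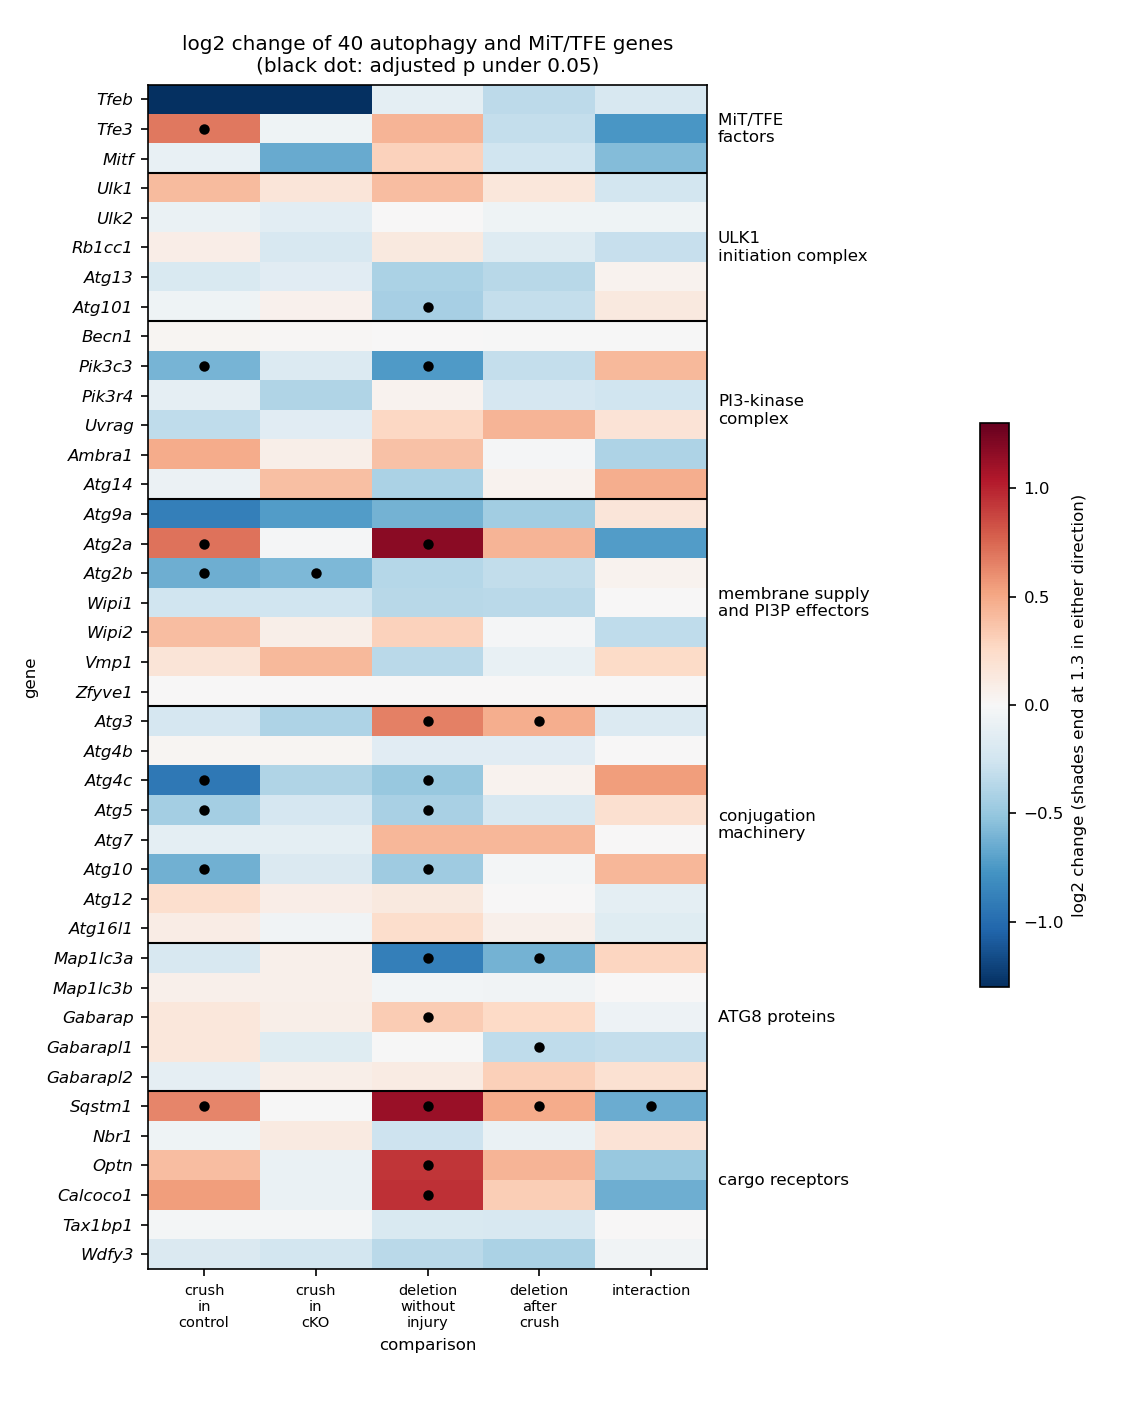
Log2 changes of the 40 genes (rows, grouped by role) in the 5 comparisons (columns), red for higher and blue for lower, with a black dot where edgeR's adjusted p was under 0.05. Dots are most frequent in the column for deletion without injury, with 12 of 40, and Sqstm1 has 4 dots in its row. That comparison also called the most of all genes, 11.7% higher and 9.02% lower.

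Among themselves the 40 genes spanned a wide range of levels. Per kilobase of exon in uninjured control samples, the ATG8 genes led. Map1lc3a stood at 484.0 ± 93.3 CPM per kb (SD, n = 4), Map1lc3b at 298.6 ± 15.3, Gabarap at 250.4 ± 22.9 and Gabarapl1 at 215.5 ± 10.2. The next were Sqstm1 at 114.5 ± 10.4, Vmp1 at 69.9 ± 8.45 and Atg5 at 60.6 ± 2.24 CPM per kb, and the last pair differed by less than the sum of their SDs. At the other end were Mitf at 0.357 ± 0.202 and Tfeb at 0.149 ± 0.165 CPM per kb. The sum over the 40 genes was 6356.7 ± 238.4 CPM in uninjured control, 6648.1 ± 287.5 in crush control, 6471.9 ± 89.1 in uninjured cKO and 6534.0 ± 275.6 in crush cKO samples, and the 4 groups overlapped.

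The MiT/TFE factors were represented mainly by Tfe3. Tfe3 (chrX:7762560-7775202 in mm10, plus strand) was read at 18.4, 20.0, 21.5 and 19.6 CPM in the uninjured control samples, replicates 1 to 4, and at 34.3, 29.6, 33.4 and 31.3 CPM in the crush control samples. Every crushed control sample lay above every uninjured one, and Tfe3 rose by 0.69 ± 0.16 on the log2 scale (edgeR adjusted p = 0.00644). In uninjured cKO samples Tfe3 was at 28.5, 28.0, 26.1 and 25.5 CPM and in crush cKO samples at 32.3, 28.5, 15.9 and 26.7 CPM. The uninjured cKO samples also lay above all uninjured controls, with a log2 change of 0.44 ± 0.16 that missed the threshold (edgeR adjusted p = 0.0629), while crush cKO replicate 3 lay below every control sample. Without the outlying aliquot of that replicate the same difference of 0.44 passed (± 0.14; edgeR adjusted p = 0.0289). The crush effect on Tfe3 in cKO neurons was -0.06 ± 0.16, and its difference from that in controls, -0.76 ± 0.23, missed the threshold (edgeR adjusted p = 0.121).

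Mitf and Tfeb transcripts were scarce in these neurons. Mitf was at 0.909, 3.83, 2.46 and 1.65 CPM in uninjured control, 1.82, 0.645, 1.14 and 4.65 in crush control, 3.30, 1.77, 2.74 and 3.09 in uninjured cKO and 2.44, 2.21, 0.222 and 2.02 in crush cKO samples. Tfeb was lower still, at 0.326, 0.324, 2.24 and 0.482 CPM in uninjured control, 0.171, 0.156, 0.675 and 0.111 in crush control, 0.536, 1.36, 0.147 and 1.05 in uninjured cKO and 0.125, 0.318, 0.247 and 0.188 in crush cKO samples. The samples overlapped for both genes in all 4 comparisons of 2 groups. For Tfeb all crush cKO samples lay below all uninjured controls, a pair of groups that differs in genotype and injury and was not compared. Of the 12 libraries of each group, 4, 4, 1 and 2 held no Tfeb read, in the same order. The lowest edgeR adjusted p over the 5 comparisons was 0.721 for Mitf and 0.213 for Tfeb, and a change was not detectable at this depth. The largest fitted log2 change of Tfeb, -1.80 ± 0.86 with crush in cKO neurons, rests on these low counts.

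MiT/TFE proteins bind DNA at E-box letters of the form CANNTG and prefer CACGTG, above all within TCACGTGA, the coordinated lysosomal expression and regulation (CLEAR) element. In the RefSeq promoters of build GRCm38.p6, each 250 bases before to 50 after a start, TCACGTGA was found in 0.974% of 32851 promoters, CACGTG in 7.15% and CANNTG in 72.3%, where each longer word also counts as a match of the shorter one and all are searched on both strands. The table matched 33 of the 40 members with 44 promoters, of which 1 held TCACGTGA (Atg3), 4 held CACGTG (Atg3, Atg5, Atg7 and Atg14) and 24 held CANNTG, or 2.27%, 9.09% and 54.5%. The 120 bases just before the RefSeq start are printed for Sqstm1 and Atg3, which rose with deletion, for Atg5, which fell, and for the lysosomal channel gene Mcoln1, with CACGTG in capitals.
Sqstm1, chr11:50210821-50210940, minus strand: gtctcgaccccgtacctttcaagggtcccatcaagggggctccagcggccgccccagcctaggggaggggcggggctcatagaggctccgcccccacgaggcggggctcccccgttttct
Atg3, chr16:45158709-45158828, plus strand: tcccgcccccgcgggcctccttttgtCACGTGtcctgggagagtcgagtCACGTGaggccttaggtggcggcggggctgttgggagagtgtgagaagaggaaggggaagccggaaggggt
Atg5, chr10:44268219-44268338, plus strand: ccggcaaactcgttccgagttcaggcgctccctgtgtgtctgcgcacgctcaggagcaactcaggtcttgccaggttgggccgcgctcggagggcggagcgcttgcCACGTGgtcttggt
Mcoln1, chr8:3500399-3500518, plus strand: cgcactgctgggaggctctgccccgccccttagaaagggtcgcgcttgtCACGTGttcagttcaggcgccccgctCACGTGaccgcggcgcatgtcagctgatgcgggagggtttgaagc
In Atg3 the words begin 94 and 71 bases before the start, in Mcoln1 71 and 45 and in Atg5 14. The Sqstm1 window holds none. These letters describe the windows, and nothing about binding was tested.

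The ULK1 initiation complex starts autophagosome formation and is a direct target of mTORC1. Of its 5 genes 1 was called, lower with deletion without injury, beside 9.02% of all genes lower and 11.7% higher. Atg101, which stabilises ATG13 in the complex and had the highest level per kilobase of the group, fell with deletion without injury by 0.43 ± 0.12 on the log2 scale (edgeR adjusted p = 0.0189), from 64.2 ± 9.28 to 47.6 ± 2.79 CPM, with no overlap. That call was lost without uninjured control replicate 4 (log2 change -0.34; edgeR adjusted p = 0.0661) or without uninjured cKO replicate 1 (-0.38; 0.0674). Ulk1, the kinase itself, was at 23.0 ± 4.85 CPM in uninjured control and 30.3 ± 5.08 in uninjured cKO samples (log2 change 0.40 ± 0.18; edgeR adjusted p = 0.134). Ulk2, Rb1cc1 and Atg13 were not called in any comparison.

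The class III PI3-kinase complex makes the lipid signal, phosphatidylinositol 3-phosphate (PI3P), on which the autophagosome is built. Its catalytic subunit Pik3c3 (VPS34), the gene of the group with the highest level per kilobase, was at 71.5 ± 11.2 CPM in uninjured control, 47.1 ± 3.16 in crush control, 42.9 ± 1.40 in uninjured cKO and 37.8 ± 8.36 in crush cKO samples. Pik3c3 fell with crush in control neurons (log2 change -0.60 ± 0.15; edgeR adjusted p = 0.00863) and with deletion without injury (-0.74 ± 0.15; edgeR adjusted p = 0.00207), and the groups did not overlap in either comparison. These comparisons share the uninjured control samples, so they are not independent. The scaffold gene Becn1 had log2 changes from -0.01 to 0.03 in the 5 comparisons, although 43.9% of its exon bases overlap Cntd1 on the opposite strand, and the unstranded reads of the pair cannot be told apart. Pik3r4, Uvrag, Ambra1 and Atg14 were not called.

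Genes for membrane supply and PI3P effectors included 2 paralogs that went opposite ways. Atg2a and Atg2b encode proteins that pass lipids into the growing membrane. Atg2a was read at 9.35, 11.3, 8.65 and 11.9 CPM in uninjured control, 16.4, 13.8, 16.6 and 20.6 in crush control, 23.0, 26.1, 23.7 and 20.1 in uninjured cKO and 27.7, 31.3, 14.6 and 17.6 in crush cKO samples. Uninjured controls were lowest throughout, and the crush cKO samples overlapped both the crush control and the uninjured cKO samples. Atg2a rose by 1.17 ± 0.22 on the log2 scale with deletion without injury (edgeR adjusted p = 0.00114) and by 0.71 ± 0.22 with crush in control neurons (edgeR adjusted p = 0.0304). The second call was lost without uninjured control replicate 1 (log2 change 0.66; edgeR adjusted p = 0.0720) or 3 (0.63; 0.0754), or without crush control replicate 4 (0.60; 0.0945). It was also lost with aliquots weighted equally (0.65; limma adjusted p = 0.117).

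Atg2b was at 95.9, 99.6, 66.1 and 90.9 CPM in uninjured control, 56.0, 66.2, 61.1 and 44.6 in crush control, 80.4, 71.5, 60.3 and 60.5 in uninjured cKO and 53.3, 47.8, 45.1 and 35.9 in crush cKO samples. Crushed samples were the lower ones in both genotypes, with 1 overlap in controls, where uninjured replicate 3 (66.1 CPM) lay just under crush replicate 2 (66.2 CPM). Atg2b fell with crush by 0.63 ± 0.16 on the log2 scale in control neurons (edgeR adjusted p = 0.0108) and by 0.58 ± 0.16 in cKO neurons (edgeR adjusted p = 0.0434). Its call in cKO neurons was lost when any 1 of 10 samples was left out, with an edgeR adjusted p of up to 0.159 (without uninjured cKO replicate 1); the 10 were uninjured control replicate 4, uninjured cKO replicates 1 to 4, crush control replicates 1 and 3 and crush cKO replicates 2 to 4. The same call was also lost with no filter (-0.58; edgeR adjusted p = 0.0559), by limma-voom (-0.57; limma adjusted p = 0.0505) and with aliquots weighted equally (-0.50; limma adjusted p = 0.0831). The difference between the 2 crush effects was 0.05 ± 0.23.

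Of the remaining genes of this group, Vmp1, a membrane protein of the endoplasmic reticulum, had the highest level per kilobase. Vmp1 was at 269.9 ± 32.6 CPM in uninjured control and 211.5 ± 21.1 in uninjured cKO samples (log2 change -0.35 ± 0.13; edgeR adjusted p = 0.0613). Crush cKO replicate 3 held 347.2 CPM of Vmp1, with 677.8 CPM in its outlying aliquot. Zfyve1, whose protein DFCP1 marks the sites where autophagosomes form, had log2 changes of 0.00 or 0.01 throughout, with an SE of 0.20 to 0.29. Atg9a, the lipid scramblase on vesicles that seed the membrane, was the group's least abundant gene per kilobase at 1.20 ± 0.208 CPM per kb in uninjured control samples and was not called; 32.6% of its exon bases overlap other genes. Wipi1 and Wipi2, which bind PI3P, were not called.

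The conjugation machinery links ATG8 proteins to the lipid of the growing membrane. ATG7 acts as the activating enzyme, ATG3 and ATG10 as transfer enzymes, ATG12, ATG5 and ATG16L1 as the final ligase, and ATG4 proteases trim ATG8 beforehand. Of 8 genes measured, Atg4c, Atg5 and Atg10 fell with crush in control neurons, beside 8.68% of all genes. With deletion without injury Atg4c, Atg5 and Atg10 fell, beside 9.02% of all genes, and Atg3 rose, beside 11.7%. Both comparisons use the same uninjured control samples, so their falls are not independent.

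Atg5 (chr10:44268358-44364291 in mm10), which had the highest level per kilobase of these genes, was at 143.0, 145.0, 135.2 and 147.2 CPM in uninjured control and 95.9, 107.3, 108.8 and 109.0 in crush control samples. It was at 110.1, 102.2, 112.0 and 101.5 CPM in uninjured cKO and 87.4, 85.5, 101.1 and 90.7 in crush cKO samples. The uninjured controls stood above all 12 other samples. Atg5 fell by 0.44 ± 0.08 on the log2 scale with crush in control neurons (edgeR adjusted p = 9.64e-04) and by 0.42 ± 0.08 with deletion without injury (edgeR adjusted p = 0.00121). With crush in cKO neurons its log2 change was -0.22 ± 0.08 (edgeR adjusted p = 0.127), and the difference between the 2 crush effects was 0.21 ± 0.11 (edgeR adjusted p = 0.424).

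Atg4c was at 46.4, 48, 42.6 and 43.6 CPM in uninjured control, 20.5, 28.1, 25.4 and 20.6 in crush control, 33.1, 27.8, 31.5 and 36.4 in uninjured cKO and 26.2, 23.8, 19.5 and 28.6 in crush cKO samples. Uninjured controls again lay above all other samples, and crush control and crush cKO samples overlapped. Atg4c fell with crush in control neurons by 0.93 ± 0.14 (edgeR adjusted p = 1.85e-04), the steepest fall among the called members, and with deletion without injury by 0.49 ± 0.14 on the log2 scale (edgeR adjusted p = 0.0192). The latter call was lost without uninjured control replicate 2 (log2 change -0.46; edgeR adjusted p = 0.0505), without uninjured cKO replicate 2 (-0.40; 0.0757) or without uninjured cKO replicate 3 (-0.46; 0.0523).

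Atg10 was at 65.6, 52.9, 56.5 and 49.0 CPM in uninjured control, 35.4, 34.4, 42.5 and 33.3 in crush control, 45.0, 35.4, 44.7 and 37.7 in uninjured cKO and 32.4, 29.7, 46.2 and 34.0 in crush cKO samples. Every uninjured control lay above every other sample. Atg10 fell with crush in control neurons by 0.62 ± 0.14 (edgeR adjusted p = 0.00647) and with deletion without injury by 0.46 ± 0.14 on the log2 scale (edgeR adjusted p = 0.0331). The deletion call was lost without uninjured control replicate 1 or 3 or without any 1 of the uninjured cKO samples, with log2 changes of -0.38 to -0.50 and edgeR adjusted p of up to 0.126. It was also lost with no filter (-0.45; edgeR adjusted p = 0.0574).

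**Figure D2:**
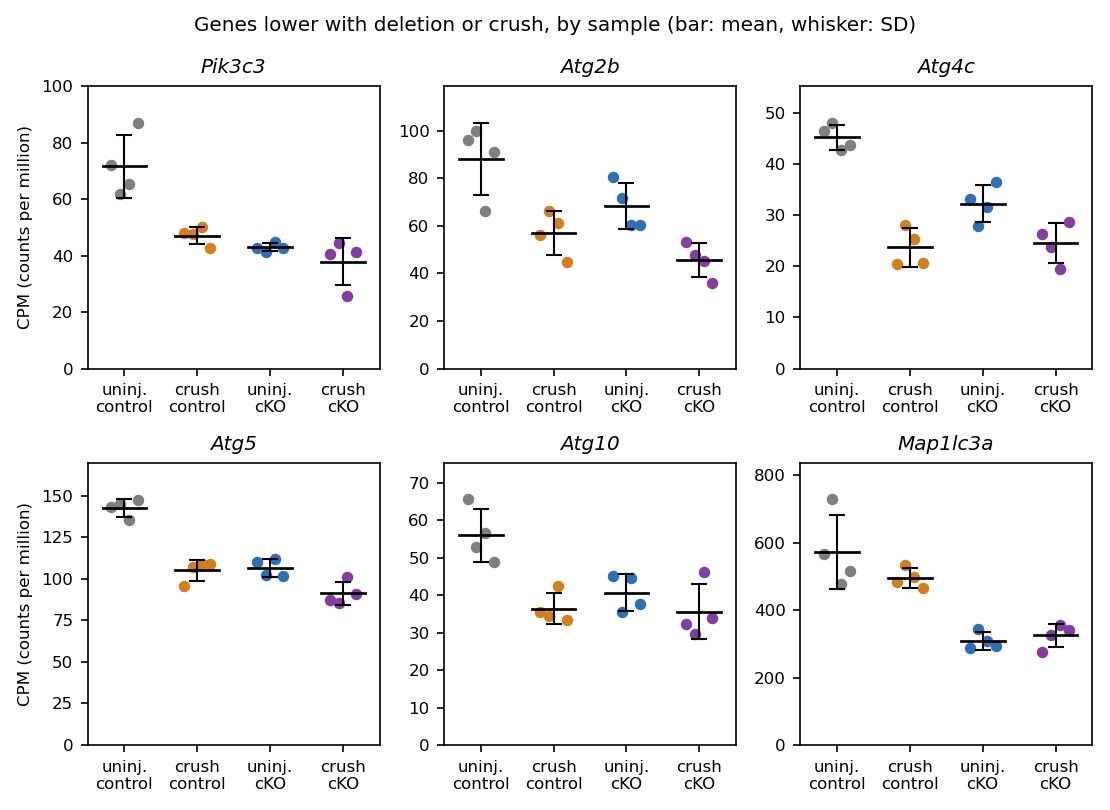
CPM of 6 members that fell in at least 1 comparison, in every sample (points), with the group mean (bar) and SD (whisker), for the 4 groups on the horizontal axis. Uninjured control samples lie above all other samples for Pik3c3, Atg4c, Atg5 and Atg10, and for Map1lc3a both cKO groups lie below both control groups.

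Atg3 (chr16:45158785-45188538 in mm10) went the other way. It was at 41.3, 47.8, 52.5 and 47.5 CPM in uninjured control and 78.1, 72.9, 66.4 and 78.5 in uninjured cKO samples, with a wide gap between the groups. In crush control samples Atg3 was at 40.1, 42.7, 48 and 31.2 CPM and in crush cKO samples at 55.8, 48, 63.5 and 56.8 CPM, where crush cKO replicate 2 met the highest control. Atg3 rose with deletion by 0.65 ± 0.13 on the log2 scale without injury (edgeR adjusted p = 0.00196) and by 0.47 ± 0.13 after crush (edgeR adjusted p = 0.0387). The call after crush was lost without the outlying aliquot (log2 change 0.39; edgeR adjusted p = 0.0706) and without any 1 of 7 samples, at most with an adjusted p of 0.104 (without crush cKO replicate 3); the others were uninjured cKO replicate 4, crush control replicates 1, 2 and 4 and crush cKO replicates 1 and 4. That call was also lost with only the groups compared (0.48; edgeR adjusted p = 0.0994), with no filter (0.46; 0.0677) and with aliquots weighted equally (0.44; limma adjusted p = 0.0563). Atg7, the partner of Atg3, was at 39.9 ± 6.13 and 53.7 ± 2.94 CPM in uninjured control and cKO samples (log2 change 0.43 ± 0.15; edgeR adjusted p = 0.0518). Atg4b, Atg12 and Atg16l1 were not called.

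The ATG8 proteins, of the LC3 and GABARAP subfamilies, coat the autophagosome and bind cargo receptors. With deletion Map1lc3a fell on either side of the injury, and Gabarap rose without injury. Map1lc3a (chr2:155276297-155278073 in mm10, plus strand) was at 565.9, 728.0, 478.5 and 514.2 CPM in uninjured control and 286.4, 344.5, 309.7 and 294.1 in uninjured cKO samples. After crush it was at 482.2, 534.1, 498.0 and 466.7 CPM in control and 276.8, 325.3, 356.3 and 341.6 in cKO samples. Every cKO sample lay below every control sample, on either side. Map1lc3a fell with deletion by 0.89 ± 0.12 on the log2 scale without injury (edgeR adjusted p = 7.23e-05) and by 0.61 ± 0.12 after crush (edgeR adjusted p = 0.00585), and neither call was lost in any alternative. Its log2 change with crush was -0.21 ± 0.12 in control and 0.07 ± 0.12 in cKO neurons, neither of them called.

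Gabarap was at 441.5, 495.7, 497.8 and 411.8 CPM in uninjured control, 489.8, 542.7, 546.8 and 471.9 in crush control, 564.3, 609.5, 577.8 and 569.5 in uninjured cKO and 536.5, 553.3, 779.8 and 588.8 in crush cKO samples. The uninjured cKO samples lay above both control groups, and crush cKO replicate 3, which holds the outlying aliquot, was the highest of all. Gabarap rose with deletion without injury by 0.33 ± 0.11 on the log2 scale (edgeR adjusted p = 0.0428). This call was lost without uninjured control replicate 1, 2 or 4, without any 1 of the uninjured cKO samples or without crush control replicate 1, with log2 changes of 0.28 to 0.37 and edgeR adjusted p of 0.0508 to 0.117. It was also lost with relative log expression scaling (0.32; 0.0502) and with no filter (0.34; 0.0611). After crush the deletion difference was 0.26 ± 0.11 (edgeR adjusted p = 0.182).

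Gabarapl1 was at 412.9, 421.2, 458.1 and 443.1 CPM in uninjured control, 466.1, 427.7, 525.7 and 508.4 in crush control, 394.0, 451.2, 426.0 and 446.6 in uninjured cKO and 355.3, 394.0, 367.6 and 417.7 in crush cKO samples. After crush all cKO samples lay below all controls, and Gabarapl1 fell with deletion by 0.33 ± 0.08 on the log2 scale (edgeR adjusted p = 0.0258), while without injury its log2 change was -0.01 ± 0.08. The call was lost without crush control replicate 3 (log2 change -0.27; edgeR adjusted p = 0.0992) or 4 (-0.30; 0.0710), or without crush cKO replicate 1 (-0.27; 0.0857) or 3 (-0.31; 0.0606). It was also lost with only the groups compared (-0.32; edgeR adjusted p = 0.103), with no filter (-0.34; 0.0544) and with aliquots weighted equally (-0.31; limma adjusted p = 0.0505). The gene shares 28.3% of its exon bases with 1700101I11Rik on the opposite strand, so its unstranded reads are uncertain.

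Map1lc3b, the LC3 protein most often followed as a mark of autophagosomes, barely moved. It was at 2273.1, 2388.4, 2116.6 and 2199.8 CPM in uninjured control, 1915.3, 2517.7, 2385.7 and 2615.8 in crush control, 2106.6, 2059.8, 2322.4 and 2227.3 in uninjured cKO and 2062.8, 2274.7, 2481.6 and 2317.1 in crush cKO samples. The groups overlapped in all comparisons, with log2 changes of -0.05 to 0.07 and an SE of 0.09 for crush and deletion. Gabarapl2 was at 74.6, 67.2, 77.6 and 68.1 CPM in uninjured control, 60.1, 68.6, 70.8 and 64.6 in crush control, 71.4, 73.5, 86.5 and 79.8 in uninjured cKO and 71.0, 68.8, 107.9 and 80.2 in crush cKO samples. Crush cKO replicate 3 was the highest there too, and Gabarapl2 was not called. ATG8 genes have close copies elsewhere in the genome, and reads that aligned to several places were not counted, so their absolute levels are uncertain.

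As a share of the 5 ATG8 genes' CPM per kilobase, Map1lc3a made up 37.6 ± 3.98% (SD, n = 4) in uninjured control, 32.8 ± 1.75% in crush control, 23.5 ± 1.27% in uninjured cKO and 24.2 ± 0.911% in crush cKO samples. These shares were not tested, and a fall of 1 gene raises the shares of the others. Gabarap made up 19.6 ± 1.72%, 21.7 ± 1.16%, 28.3 ± 0.661% and 29.1 ± 2.63% in the same order. Map1lc3a had the largest share in every control sample. Gabarap had it in every cKO sample except crush cKO replicate 2, where Map1lc3b stood at 27.4% and Gabarap at 27.2%. The summed CPM of the 5 genes was 3783.5 ± 220.7 in uninjured control and 3575.2 ± 126.5 in uninjured cKO samples.

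**Figure D3:**
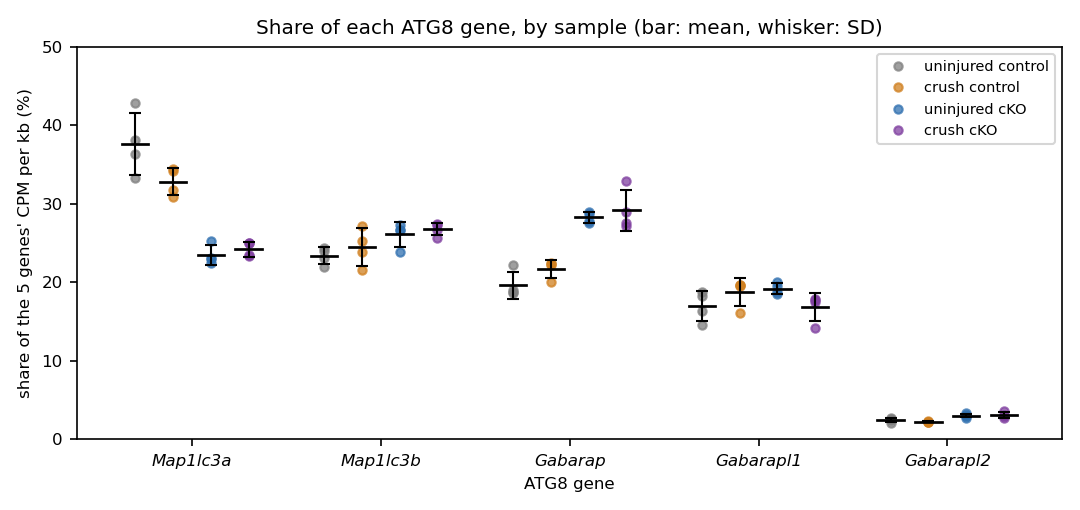
Share of each ATG8 gene (horizontal axis) in the summed CPM per kilobase of the 5 genes, in percent, for every sample (points) with the group mean (bar) and SD (whisker). For Map1lc3a the cKO samples lie at 22.4 to 25.3% and the controls at 30.9 to 42.8%, and for Gabarap the cKO samples lie above the controls.

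Cargo receptors tie ubiquitin-tagged or other selected cargo to ATG8. Of 6 genes, 3 rose with deletion without injury (Sqstm1, Optn and Calcoco1) and none fell, beside 11.7% of all genes higher and 9.02% lower. Sqstm1 (chr11:50199366-50210827 in mm10, minus strand) encodes p62, which gathers ubiquitinated proteins and is itself broken down by autophagy. It was read at 362.6, 380.2, 435.1 and 359.8 CPM in uninjured control and 685.6, 505.8, 572.8 and 619.6 in crush control samples. In uninjured cKO samples it was at 837.1, 928.8, 794.3 and 779.7 CPM and in crush cKO samples at 894.8, 935.1, 785.5 and 703.0 CPM. The order from uninjured control to crush control to both cKO groups was complete, with no control sample reaching a cKO sample and no overlap between the control groups, while the cKO groups overlapped each other.

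Sqstm1 rose with deletion without injury by 1.12 ± 0.11 on the log2 scale (edgeR adjusted p = 4.22e-06), with crush in control neurons by 0.63 ± 0.11 (edgeR adjusted p = 8.09e-04) and with deletion after crush by 0.48 ± 0.11 (edgeR adjusted p = 0.0157). With crush in cKO neurons the log2 change was -0.01 ± 0.11 (edgeR adjusted p = 0.986). The crush effect was therefore lower in cKO than in control neurons by -0.64 ± 0.16 (edgeR adjusted p = 0.0485). That difference passed by little. It missed the threshold with the replicate block (-0.64; edgeR adjusted p = 0.0547), with no filter (-0.65; 0.0656), without the outlying aliquot (-0.63; 0.0513) and without any 1 of 13 samples, with log2 values of -0.57 to -0.68 and adjusted p of up to 0.100. Of the fits without 1 sample it passed only without uninjured control replicate 3, crush control replicate 2 or crush cKO replicate 2. It was kept with relative log expression scaling, DESeq2, limma-voom and aliquots weighted equally, so it was lost in 16 of 23 alternatives. The rise with deletion after crush was lost without crush control replicate 2 (log2 change 0.41; edgeR adjusted p = 0.0505). Of Sqstm1's exon bases, 17.3% overlap Mrnip on the opposite strand.

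Optn encodes optineurin, a receptor for damaged mitochondria and protein aggregates. Optn was at 41.1 ± 3.97 CPM in uninjured control, 54.1 ± 10.6 in crush control, 78.1 ± 12.8 in uninjured cKO and 73.2 ± 20.1 in crush cKO samples. Calcoco1, a receptor for endoplasmic reticulum and Golgi, was at 17.8 ± 4.24, 25.8 ± 3.73, 34.5 ± 4.85 and 32.3 ± 7.49 CPM in the same order. With deletion without injury Optn rose by 0.93 ± 0.19 (edgeR adjusted p = 0.00225) and Calcoco1 by 0.95 ± 0.19 on the log2 scale (edgeR adjusted p = 0.00216), with no overlap and in every alternative. Neither was called in another comparison; after crush the deletion differences were 0.44 ± 0.19 for Optn and 0.32 ± 0.19 for Calcoco1. Nbr1, Tax1bp1 and Wdfy3 were not called in any comparison.

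**Figure D4:**
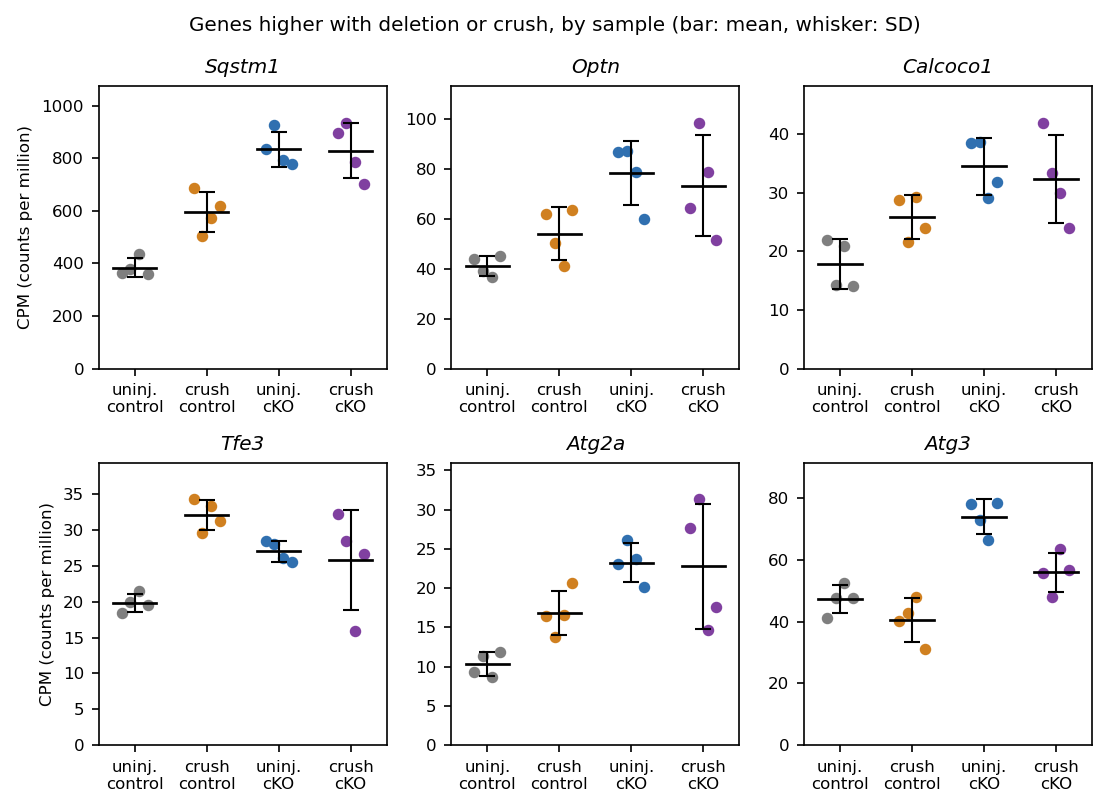
CPM of 6 members that rose in at least 1 comparison, in every sample (points), with the group mean (bar) and SD (whisker), for the 4 groups on the horizontal axis. For Sqstm1 the uninjured controls are lowest, crush controls intermediate and both cKO groups highest, and Atg3 is highest in uninjured cKO samples.

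Crush in control neurons and deletion without injury share their uninjured control samples, so a high or low reading there enters both, and no count of genes called in both is read as a result. Side by side, the log2 changes with crush and with deletion were 0.71 and 1.17 for Atg2a, 0.63 and 1.12 for Sqstm1, -0.60 and -0.74 for Pik3c3, -0.93 and -0.49 for Atg4c, -0.44 and -0.42 for Atg5, and -0.62 and -0.46 for Atg10. In cKO neurons the log2 changes with crush, none of them called, ran from -0.39 (Atg4c) to -0.01 (Sqstm1).

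The 25 members called in no comparison had fitted log2 changes between -1.80, for Tfeb, and 0.48, for Ambra1. Per kilobase in uninjured control samples, Map1lc3b had the highest level among them and Tfeb the lowest.

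Genes that regulate MiT/TFE factors or are known as their targets were followed as a further list, with 17 of 18 genes tested. With deletion without injury 7 rose and 1 fell, beside 11.7% of all genes higher and 9.02% lower. The rises included Mcoln1, a lysosomal calcium channel and CLEAR-element gene, Fnip1, Fnip2 and Flcn, which form the folliculin complex that lets mTORC1 phosphorylate TFEB and TFE3, and Rragc and Rragd, guanosine triphosphatases that bring mTORC1 to lysosomes. Mcoln1 was at 32.5 ± 9.79 CPM in uninjured control and 71.6 ± 6.18 in uninjured cKO samples (log2 change 1.14 ± 0.18; edgeR adjusted p = 3.54e-04). Fnip2 was at 3.65 ± 0.646 and 8.71 ± 0.911 CPM (1.25 ± 0.19; edgeR adjusted p = 2.32e-04), and Fnip1 at 16.8 ± 4.15 and 32.1 ± 4.89 CPM (0.94 ± 0.18; edgeR adjusted p = 0.00135). Rises were also called for Rragc (0.69 ± 0.16; edgeR adjusted p = 0.00546), Rragd (0.59 ± 0.16; 0.0148) and Flcn (0.89 ± 0.27; 0.0280), whose groups overlapped. The Flcn call was lost without uninjured control replicate 1 or 4 or uninjured cKO replicate 1, 2 or 4, with an adjusted p of up to 0.0757, and with aliquots weighted equally or only the groups compared.

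The gene of this list that fell was Ppp3ca, the catalytic subunit of calcineurin, a phosphatase that acts on TFEB. Ppp3ca was at 2302.2 ± 444.1 CPM in uninjured control, 1329.2 ± 242.7 in crush control, 773.4 ± 61.1 in uninjured cKO and 584.6 ± 47.3 in crush cKO samples. It fell with deletion without injury by 1.57 ± 0.14 (edgeR adjusted p = 1.40e-06), with crush in control neurons by 0.79 ± 0.14 (edgeR adjusted p = 8.19e-04) and with deletion after crush by 1.19 ± 0.14 on the log2 scale (edgeR adjusted p = 1.33e-04). After crush 4 genes of the list rose with deletion, beside 3.38% of all genes. They were Fnip1 (0.79 ± 0.18; edgeR adjusted p = 0.0132), Fnip2 (0.75 ± 0.19; 0.0253), Gpnmb (2.15 ± 0.57; 0.0318) and Mcoln1 (0.64 ± 0.18; 0.0441). Of these, Fnip2 was lost without crush control replicate 3 or 4 or crush cKO replicate 1 or 4 (adjusted p of up to 0.0782). Gpnmb was lost without crush control replicate 1, 3 or 4 or crush cKO replicate 1 or 4 (up to 0.0885). Mcoln1 was lost without uninjured control replicate 2, uninjured cKO replicate 1, 2 or 4, crush control replicate 1, 2 or 3 or any 1 crush cKO sample (up to 0.114), and also with the replicate block (0.0595), no filter (0.0611) or aliquots weighted equally (0.0737). Fnip2 was lost too with no filter, aliquots weighted equally or only the groups compared. With crush in control neurons Ywhag rose, beside 11.0% of all genes, and Ppp3ca, Foxo3 and Rragb fell, beside 8.68%. The Foxo3 call was lost without crush control replicate 1 (edgeR adjusted p = 0.0520), and the Rragb call without uninjured control replicate 2 or 4 or crush control replicate 2 or 3 (up to 0.0873). The Rragb call was also lost with no filter or only the groups compared. With crush in cKO neurons edgeR called none of the 17.

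Gpnmb, a transmembrane glycoprotein gene known as a MiT/TFE target, was at 14.3 ± 13.6 CPM in uninjured control and 66.8 ± 25.9 in uninjured cKO samples (log2 change 2.22 ± 0.57; edgeR adjusted p = 0.0110), with 1 control sample (33.7 CPM) above the lowest cKO sample (29.7 CPM). Macrophages also express Gpnmb. The sum of 8 macrophage markers was 5.27 to 9.86 CPM in uninjured control, 6.01 to 67.9 in crush control, 7.65 to 17.8 in uninjured cKO and 10.6 to 22.5 in crush cKO samples. Of these markers 6 passed the filter, and Csf1r was called higher with deletion without injury (2.21 ± 0.74; edgeR adjusted p = 0.0459) and with crush in control neurons (2.44 ± 0.75; edgeR adjusted p = 0.0312). The part of macrophage RNA in the Gpnmb result was not tested.

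**Figure D5:**
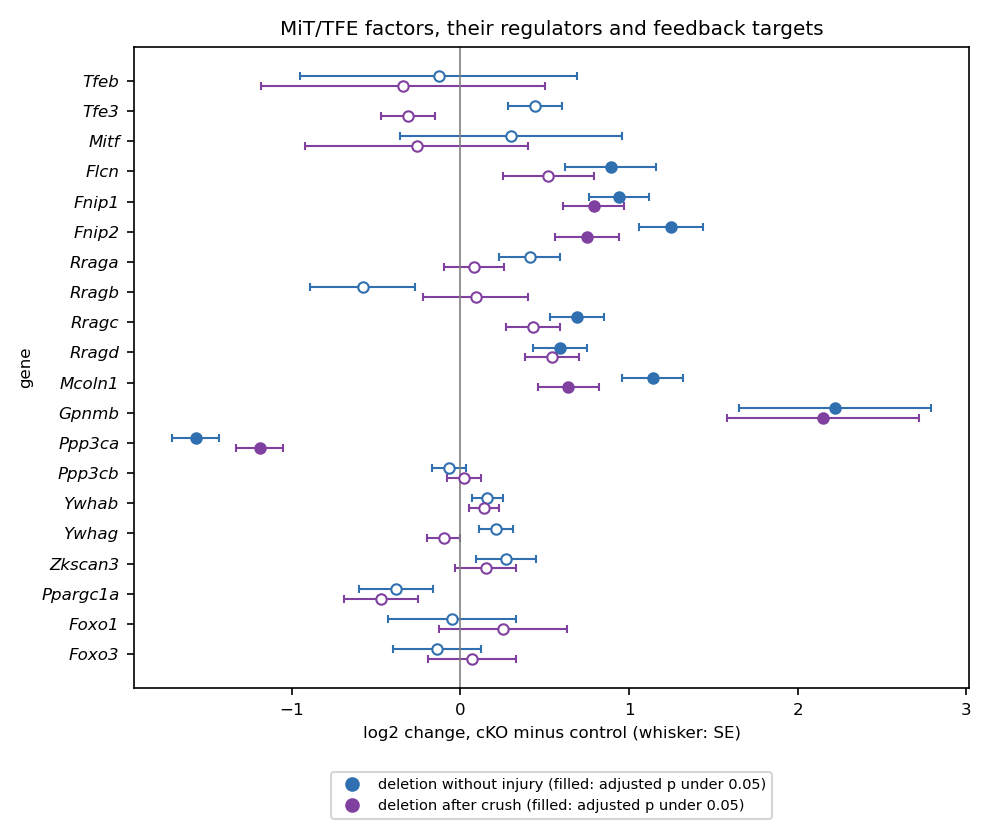
Log2 change with Tsc2 deletion (horizontal axis, cKO minus control; whisker, SE) of the 3 MiT/TFE factors and 17 regulators and targets, without injury (blue) and after crush (purple); filled points passed an adjusted p of 0.05. Filled points lie to the right for Mcoln1, Fnip1, Fnip2 and Gpnmb in both comparisons and to the left for Ppp3ca, and none of the factors has a filled point.

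Of 23 other core autophagy genes, 6 rose and 1 fell with deletion without injury, beside 11.7% and 9.02% of all genes. With crush in control neurons 3 rose (13.0%) and 2 fell (8.70%), near the 11.0% and 8.68% of all genes. With deletion after crush 2 rose and 1 fell, beside 3.38% and 3.21%, and with crush in cKO neurons edgeR called none. The gene that fell after crush, Wdr45, was lost in 19 of 24 alternatives, the replicate block among them (edgeR adjusted p = 0.0654), and Rab7, which rose without injury, in 8. Tecpr1, which joins autophagosomes to lysosomes, was at 32.3 ± 3.01 CPM in uninjured control and 67.4 ± 4.31 in uninjured cKO samples (log2 change 1.06 ± 0.12; edgeR adjusted p = 1.41e-05) and stayed higher with deletion after crush (0.66 ± 0.12; edgeR adjusted p = 0.00333). Vamp8, a fusion protein of the lysosomal side, rose with deletion without injury (0.64 ± 0.13; edgeR adjusted p = 0.00207) and after crush (1.31 ± 0.13; edgeR adjusted p = 2.75e-05) but fell with crush in control neurons (-0.56 ± 0.13; edgeR adjusted p = 0.00561). Sh3glb1, which binds the beclin complex through UVRAG, rose with crush in control neurons from 87.4 ± 5.61 to 162.7 ± 14.4 CPM (0.90 ± 0.09; edgeR adjusted p = 4.65e-06) and with deletion without injury to 145.4 ± 13.0 CPM (0.73 ± 0.09; edgeR adjusted p = 3.63e-05). In crush cKO samples Sh3glb1 stood at 171.0 ± 11.5 CPM, and its crush effect was lower in cKO than in control neurons by -0.66 ± 0.13 (edgeR adjusted p = 0.0117). Plekhm1, an adaptor for lysosome fusion, rose with crush in control neurons (1.52 ± 0.24; edgeR adjusted p = 3.07e-04) and with deletion without injury (1.10 ± 0.24; edgeR adjusted p = 0.00348), while Vps41 of the tethering complex fell in both (-0.62 ± 0.11 and -0.45 ± 0.11; edgeR adjusted p = 6.54e-04 and 0.00648).

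Among 15 tested receptors of other selective routes, 5 rose and 4 fell with deletion without injury, beside 11.7% and 9.02% of all genes. With crush in control neurons 3 rose and 5 fell, beside 11.0% and 8.68%. With crush in cKO neurons 1 fell, beside 2.86%, and with deletion after crush 1 rose, beside 3.38%. Receptors for mitochondria moved in both directions. Bnip3 fell with crush in control neurons by 1.34 ± 0.17 (edgeR adjusted p = 3.29e-05), from 262.5 ± 20.3 to 103.6 ± 31.0 CPM, with deletion without injury by 0.76 ± 0.16 (edgeR adjusted p = 0.00371) and with crush in cKO neurons by 0.71 ± 0.16 on the log2 scale (edgeR adjusted p = 0.0176). The last call was lost without uninjured cKO replicate 1, 3 or 4 or crush cKO replicate 1, 2 or 4, with an adjusted p of up to 0.0598. Bnip3l rose with deletion from 82.1 ± 4.10 to 123.4 ± 14.0 CPM without injury (0.59 ± 0.10; edgeR adjusted p = 5.33e-04) and from 75.7 ± 2.97 to 126.4 ± 14.6 CPM after crush (0.74 ± 0.10; edgeR adjusted p = 3.64e-04). Of Bnip3's exon bases, 22.3% overlap Gm45507 on the opposite strand.

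Regulators around AMPK, the energy-sensing kinase that activates ULK1, were the last list. Of 14 genes, 5 rose and 1 fell with deletion without injury, beside 11.7% and 9.02% of all genes. With crush in control neurons 3 rose and 2 fell, beside 11.0% and 8.68%. With crush in cKO neurons 2 fell, beside 2.86%, and with deletion after crush 1 rose, beside 3.38%. Sesn3, a sestrin, was at 24.6 ± 5.29 CPM in uninjured control, 14.5 ± 2.32 in crush control, 53.8 ± 5.03 in uninjured cKO and 24.7 ± 4.97 in crush cKO samples. It rose with deletion (1.13 ± 0.18 without injury, edgeR adjusted p = 2.89e-04; 0.78 ± 0.18 after crush, edgeR adjusted p = 0.0142) and fell with crush (-0.77 ± 0.18 in control, edgeR adjusted p = 0.00602; -1.12 ± 0.18 in cKO neurons, edgeR adjusted p = 0.00140). Prkab1, a regulatory subunit of AMPK, rose with deletion without injury from 2.68 ± 0.776 to 8.29 ± 0.928 CPM (1.63 ± 0.26; edgeR adjusted p = 3.91e-04). Prkab2 rose with crush in control neurons from 49.9 ± 7.26 to 77.1 ± 4.65 CPM (0.63 ± 0.11; edgeR adjusted p = 0.00111), and its crush effect was lower in cKO neurons by -0.71 ± 0.16 (edgeR adjusted p = 0.0357). That difference was lost without uninjured control replicate 2, any 1 uninjured cKO sample, crush control replicate 1 or 4 or crush cKO replicate 1 or 4, with an adjusted p of up to 0.0761, and with the replicate block (0.0627), no filter (0.0508) or aliquots weighted equally (0.0517).

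The authors' deposited table lists 8600 genes with fold changes from DESeq2 for 3 groups, without naming the group they are set against, and 24 of the 40 members are in it. By an adjusted p under 0.05 in the authors' deposited table, 7 members were higher and 11 lower for uninjured cKO, 7 and 6 for crush control, and 8 and 11 for crush cKO. Each of the 24 listed members passed for some group. The share of all 8600 genes that passed was not computed, so these counts are not read as a result about the members. Sqstm1 is given there with log2 fold changes of 1.12 for uninjured cKO, 0.63 for crush control and 1.14 for crush cKO in the authors' deposited table, and Map1lc3a with -0.91, -0.22 and -0.78. For uninjured cKO and crush control these lie close to the changes against uninjured control found here. Those were 1.12 and 0.63 for Sqstm1 and -0.89 and -0.21 for Map1lc3a. The crush cKO values are not set beside deletion after crush, whose reference here is crush control.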

How the data were processed

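Gene counts of 48 libraries were used as deposited. Per the submitters' processing notes, the authors used FastQC, STAR, HTSeq and DESeq2 with build mm10, with versions not given there. Per the labels' protocols, libraries came from a SMARTer Ultra Low kit without strand information or molecular identifiers and were read as single 50-base reads. In the deposited files the 5 HTSeq summary lines were left out, of which the line for reads aligning to several places held 37.5 to 46.1% of the file's total. The authors' deposited table gives log2 fold changes and p-values whose reference group its header does not name.

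The 3 technical aliquots of each replicate were summed, giving 16 samples. Genes were filtered with filterByExpr, scaled by TMM and fitted with 1 mean per group in edgeR 4.0.16 (R 4.3.3), and p-values were adjusted by Benjamini-Hochberg over all 19048 genes with a threshold of 0.05. Each SE was derived from the F statistic and the log2 change. Same-numbered samples of the 2 sides match in genotype and sex and may come from 1 animal, which the labels do not state. The reported values are unpaired, the replicate block is an alternative, and p-values measure the spread between these samples. For the crush comparisons and the interaction the block joined same-numbered samples of 1 genotype. For the deletion comparisons it was the replicate number over all 4 groups. Relative log expression scaling, no filter, DESeq2 1.42.0, limma 3.58.1 (voom, and equal weight per aliquot with a prior count of 2), a replicate block, only the groups compared, and leaving out each sample were the alternatives. Leaving out 1 aliquot was added after seeing the data. The fit was tested on simulated data.

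Identifiers were named from GENCODE M21, where 47224 of 47643 matched. Levels per kilobase use the union of exons. Members and lists were chosen with earlier results of these data known. Named in the text were the MiT/TFE genes, every called member, the member of highest level per kilobase in each role group, and called genes of the further lists with the smallest adjusted p; Ulk1, Atg7, Becn1, Zfyve1, Atg9a and Ambra1 were chosen after their values were seen. A comparison of ATG8 protein sequences was planned and not run.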

Additional observations from a re-analysis of the deposited data

Results flagged for a closer look

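Among 60 sets of 4 samples that were looked at, 3 held a sample far from the other samples of its group, and chance gives about 1 in 20 such sets. For Tfeb these were uninjured control replicate 3, at 2.24 CPM, and crush control replicate 3, at 0.675 CPM. For Atg5 it was crush control replicate 1, at 95.9 CPM, the lowest of its group.

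The crush effect on Sqstm1 differed between genotypes by the interaction test, at -0.64 on the log2 scale for cKO minus control (SE 0.16, n = 4 samples a group; edgeR adjusted p = 0.0485). All 4 crushed control samples lay above all 4 uninjured controls, and the cKO groups overlapped.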

How the results depend on the processing

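No log2 change of a called member reversed in 623 values over 24 alternatives, 549 kept their call and 74 lost it, and 16 of 26 member results were never lost. With crush in control neurons 7 to 11 members were called in every alternative (8 as reported), and with deletion without injury 9 to 17 (12). The shares of all genes called in the alternatives are not given, so these counts show only how far the calls depend on the setting. With crush in cKO neurons (1 as reported) there were 0 without a filter, 0 by limma-voom, 0 with aliquots weighted equally, 3 by DESeq2, 3 without the outlying aliquot and 0 to 2 without 1 sample. With deletion after crush (4) there were 2 without a filter, 2 with aliquots weighted equally, 2 with only the groups compared and 2 to 4 without 1 sample. For the interaction (1) there were 0 without a filter, 2 by DESeq2, 0 without the outlying aliquot and 0 to 1 without 1 sample. The replicate block gave 10, 1, 13, 4 and 0 calls over the 5 comparisons, the last ending the Sqstm1 interaction call (edgeR adjusted p = 0.0547).

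Deviations of same-numbered samples correlated at 0.041 to 0.152 between sides of 1 genotype, where every sample correlated best with its own number, and at 0.009 to 0.064 between genotypes. The first is a hint of pairing by animal, but the labels do not state such pairing, so the block stayed an alternative. Among the further genes it ended the calls of Ccpg1 (crush in control), Mcoln1 and Wdr45 (deletion after crush) and Prkab2 (interaction). In the deletion comparisons the block joined replicate numbers across genotypes, which are different animals, so its calls there do not reflect pairing by animal. The median log2 change of members moved to -0.15 (crush in cKO) and -0.11 (interaction) with aliquots weighted equally, which also moved the median of all genes from 0.002 to -0.059 for crush in cKO, from 0.015 to 0.134 for deletion without injury and from -0.015 to -0.134 for the interaction. Without 1 sample it ranged from -0.08 to 0.01 for crush in control, from -0.03 to 0.08 for deletion without injury and from -0.07 to 0.01 for the interaction. The causes were not tested. Low counts limit Tfeb and Mitf.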
